A study of Mus musculus with 2 samples.

Results

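Genes of the neuropeptide system were measured in the mouse cerebral cortex: 45 genes, listed by symbol, that encode 14 peptide precursors, 4 granin-family proteins of secretory granules, 4 processing enzymes, 22 peptide receptors and 1 peptide-binding protein. All 45 symbols were found, each with 1 gene identifier, among 55536 annotated genes. The list is one of gene functions. Ribosomal-RNA-depleted total RNA of the left cerebral cortex came from female B6CASTF1/J mice, the first-generation hybrid of C57BL/6J and CAST/EiJ, at 14 days of age, with no treatment or engineered allele named. There were 2 libraries, both of this 1 group, made from 300 ng of RNA each and described as biological replicates of the same donor entry. The shared description names 3 females while the tissue label of replicate 2 names a single female, so whether a library pools animals is not known. With 1 group and no contrast between conditions, the design gives levels, ratios between genes within a library, and the difference between the libraries.

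Neuropeptides are made as larger precursors that enter the secretory pathway and are packed into dense-core granules together with granins. Prohormone convertases cut the precursor at pairs of basic residues, a carboxypeptidase trims the exposed lysine or arginine, and an amidating monooxygenase can convert a C-terminal glycine into the amide that many peptides need for activity. The released peptides act mostly on G-protein-coupled receptors, often at a distance from the release site. In the cortex several of these precursors mark classes of inhibitory interneurons, Sst and Vip best known among them, while others are also made by excitatory neurons.

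The libraries held 33.4M (replicate 1) and 32.01M (replicate 2) expected counts over genes. All levels are in TPM, a count scaled by transcript length and by the library's total, which allows different genes of a library to be compared. As background for the tissue label, all 8 excitatory neuron markers passed 1 TPM in each library, the cortical vesicular glutamate transporter Slc17a7 among them at 771 and 743 TPM. So did all 12 interneuron markers and all 8 markers of striatal projection neurons, the latter with a summed level of 298 and 186 TPM (replicate 1, then replicate 2, as throughout). Of the 8 hypothalamic and pituitary markers only Pomc reached 1 TPM in both libraries, Avp was at 0.10 and 10.2 TPM, and Gh and Prl were at 0 counts in both. In bulk tissue, fewer cells of a type and less RNA per cell cannot be told apart, which holds for every level given here.

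Most of the 45 listed genes were detected. Of the 45, 43 (95.6%) reached 1 TPM in both libraries, against 14757 of all 55536 genes (26.6%) and 12946 of 22015 nuclear protein-coding genes. The 2 below that level in 1 library were the receptor genes Vipr2, at 1.28 and 0.65 TPM, and Tacr3, at 0.98 and 1.14 TPM. Outside the 45, 14 of 38 genes listed as other peptide precursors reached 1 TPM in both libraries. Of 51 listed as other peptide receptors, 27 did. The 45 were chosen with earlier results of these data known, so no property of neuropeptide genes is read from their share. The median level of the 45 genes was 16.4 ± 0.113 TPM (SD, n = 2), and that of the detected nuclear protein-coding genes was 16.1 ± 0.590 TPM. The roles lay at different heights. Processing enzymes had a median of 111 TPM and granins of 108 TPM, while peptide precursors had a median of 17.9 TPM and receptors of 7.27 TPM. Precursors ranged from 4.81 to 306 TPM and receptors from 0.965 to 67.7 TPM. Summed over the 14 precursors, Cck held 39.6% ± 0.607 of the TPM, Sst 27.4% ± 1.55 and Npy 11.4% ± 0.288 (SD, n = 2), together 78.3% ± 0.656. These levels depend on the quantification: in the second one, made from the reads and not from an alignment, the median of the 45 genes was 22.4 TPM, with Cck at 698 and 640 TPM, Sst at 355 and 357 TPM and Npy at 174 and 156 TPM.

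**Figure D1:**
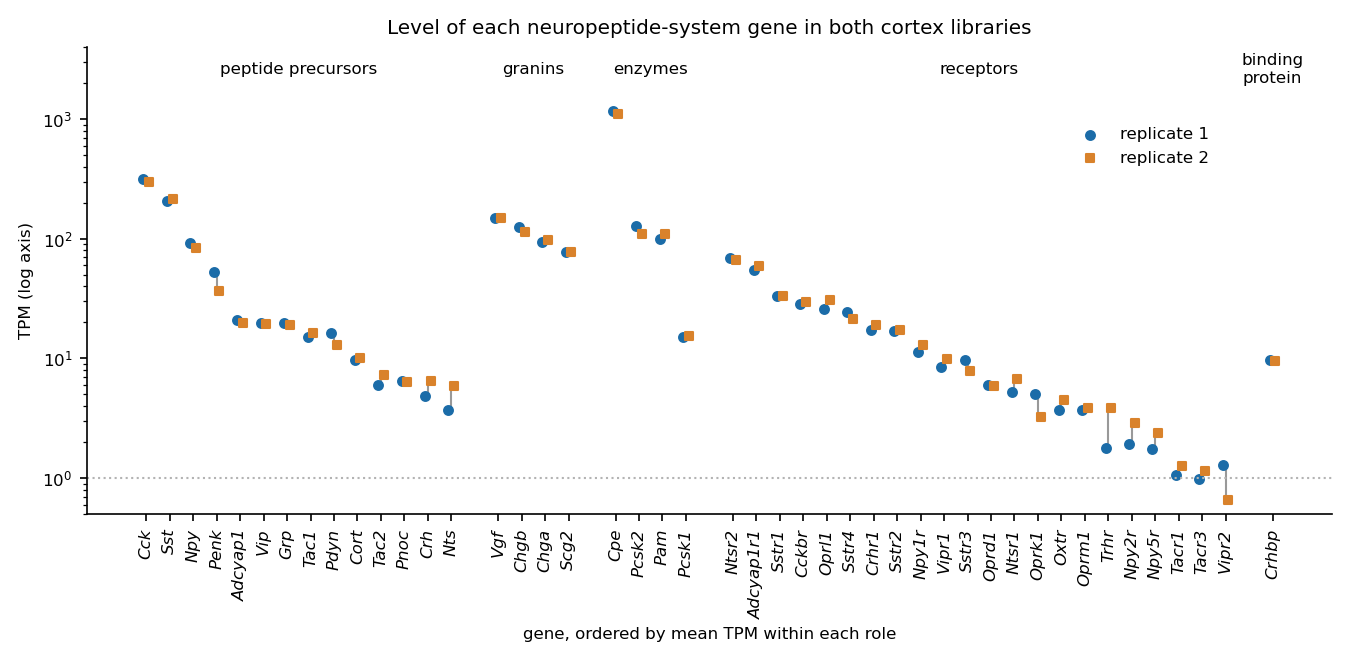
Level of each of the 45 genes in TPM on a log axis, replicate 1 as circles and replicate 2 as squares, grouped by role and ordered by mean level, with the dotted line at 1 TPM. Cpe stands above all others at 1159 and 1099 TPM, the granins lie between 77.2 and 149.99 TPM, and the receptors spread from 0.65 to 69.1 TPM.

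Somatostatin, encoded by Sst, is an inhibitory peptide and the classical marker of dendrite-targeting cortical interneurons. Sst had 208 TPM in the library of replicate 1 and 215 in that of replicate 2, above 97.5% of the detected nuclear protein-coding genes. Cort encodes cortistatin, a close relative that binds the same receptors, and was listed at 9.67 and 10.1 TPM. The libraries thus gave nearly the same value for each gene, and Sst exceeded Cort 21.2-fold within a library (log2 ratio 4.41 ± 0.01, SD, n = 2). The kinship of the precursors shows in the 12 codons of the peptides' ring, read from the GENCODE M21 coding sequences on mm10, both on the minus strand, where capitals mark the bases that differ.
Sst, chr16:23889732-23889767: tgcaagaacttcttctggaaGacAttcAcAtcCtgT
Cort, chr4:149125270-149125305: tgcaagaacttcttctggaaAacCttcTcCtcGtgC
Of the 36 bases 30 are the same (83.3%), and the longest run shared by the transcripts of 721 and 677 bases is 21 bases. Sequence inside that run cannot assign a read to either gene.

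The 4 listed somatostatin receptors together held 84.2 and 79.8 TPM. Sstr1 was highest at 33.3 and 33.4 TPM, Sstr4 followed at 24.3 and 21.4 TPM, Sstr2 at 17.0 and 17.1 TPM, and Sstr3, a receptor of neuronal cilia, was lowest at 9.67 and 7.88 TPM. The order Sstr1, Sstr4, Sstr2, Sstr3 was the same in both libraries and no neighbouring ranges overlapped. Sst exceeded each of them, from 6.33-fold over Sstr1 (log2 2.66 ± 0.03) to 24.0-fold over Sstr3 (4.58 ± 0.24). Cort was below Sstr1 3.35-fold (-1.74 ± 0.04), below Sstr4 2.29-fold (-1.20 ± 0.17) and below Sstr2 1.72-fold (-0.78 ± 0.03). Against Sstr3, Cort was level in replicate 1 and higher by 0.35 on the log2 scale in replicate 2.

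Neuropeptide Y, encoded by Npy, is released by neurogliaform and other interneurons and acts through several receptors of the Y family. Npy was at 91.5 and 84.2 TPM. Its postsynaptic receptor gene Npy1r was at 11.2 and 12.9 TPM, the presynaptic autoreceptor gene Npy2r at 1.91 and 2.89 TPM, and Npy5r at 1.75 and 2.40 TPM. Npy1r therefore made up most of the summed 16.5 ± 2.35 TPM, 4.95-fold above Npy2r (log2 2.31 ± 0.26), while the library ranges of Npy2r and Npy5r overlapped. Npy exceeded Npy1r 7.25-fold (2.86 ± 0.23), Npy2r 35.8-fold (5.16 ± 0.49) and Npy5r 40.9-fold (5.35 ± 0.39), the last being the widest gap among the 26 pairs of a peptide with a receptor.

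Cholecystokinin, encoded by Cck, is made by a class of basket cells and by many excitatory neurons. Cck had the highest level of the 14 precursors, with 317 and 295 TPM. Its main brain receptor gene Cckbr was at 28.7 and 29.5 TPM, so that the ligand gene was 10.5-fold higher (log2 3.39 ± 0.10). Cck stood 1.45-fold above Sst (0.53 ± 0.10), and the library ranges of both genes did not overlap.

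Vasoactive intestinal peptide (Vip) marks interneurons that inhibit other interneurons, and the related peptide PACAP (Adcyap1) shares some of its receptors. Vip was at 19.7 and 19.6 TPM, and Adcyap1 at 20.7 and 19.6 TPM, with overlapping ranges. In the second quantification the ranges were separate, with Vip at 28.3 and 28.8 TPM above Adcyap1 at 17.4 and 19.1 TPM. The PACAP-selective receptor gene Adcyap1r1 was at 55.0 and 59.6 TPM, Vipr1 at 8.44 and 9.97 TPM, and Vipr2 at 1.28 and 0.65 TPM, from 37 and 23 counts. Adcyap1r1 was thus the highest of the 3 receptor genes, 6.19-fold above Vipr1 (log2 2.63 ± 0.09), and it also exceeded Adcyap1 itself 2.83-fold (peptide over receptor -1.50 ± 0.14), or 4.59-fold in the second quantification. Vip exceeded Vipr1 2.13-fold (1.09 ± 0.17), a direction that turned to -0.13 on counts not divided by length. Vip exceeded Vipr2 19.4-fold (4.28 ± 0.62), or 30.2-fold in the second quantification, and its log2 ratio was 3.41 with 1 in place of 0.1 TPM added to each level. Adcyap1 was 2.19-fold above Vipr1 (1.13 ± 0.22), or 1.36-fold in the second quantification, and 19.9-fold above Vipr2 (4.32 ± 0.57, or 3.45 with 1 TPM added). Vipr2 itself had no common direction: TPM was lower in replicate 2 in the gene table and higher there, 0.706 against 1.02 TPM, in the second quantification.

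Corticotropin-releasing hormone (Crh) drives the stress axis from the hypothalamus and is also made by cortical interneurons. Crh was at 4.85 and 6.42 TPM, its receptor gene Crhr1 at 17.3 and 19.1 TPM, and Crhbp, whose secreted product binds the hormone, at 9.67 and 9.56 TPM. The ligand gene was the lowest of the 3 in both libraries. Crhr1 exceeded it 3.21-fold (ligand over receptor -1.68 ± 0.18) and Crhbp 1.71-fold (-0.77 ± 0.29).

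The tachykinin precursor genes Tac1, which encodes substance P, and Tac2, which encodes neurokinin B, were at 15.2 and 16.4 TPM and at 6.04 and 7.24 TPM. Their receptor genes were among the lowest of the 45. Tacr1, the substance P receptor gene and a marker of rare long-range interneurons, was at 1.07 and 1.26 TPM, and Tacr3 at 0.98 and 1.14 TPM, with overlapping ranges. Tac1 exceeded Tacr1 12.6-fold (log2 3.66 ± 0.08) and Tac2 exceeded Tacr3 5.80-fold (2.54 ± 0.04). With 1 in place of 0.1 TPM added to each level, the log2 ratios were 2.96 and 1.89. The ratio of Tac2 to Tacr3 also depends on transcript length: on expected counts not divided by length, 75 and 85 for Tac2 and 77 and 86 for Tacr3, it was -0.03.

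The opioid precursors are a textbook case of peptides cut from repeated units. Each unit starts with codons for tyrosine, glycine, glycine and phenylalanine, and lies behind a pair of lysine or arginine codons where the convertases cut. In the annotated coding sequences, Penk, the proenkephalin gene, held 7 in-frame copies of the codons TAN, GGN, GGN and TTN in a row (N is any base, coding strand only), and Pdyn, the prodynorphin gene, 3 copies. Pnoc, the pronociceptin gene, held 1 copy of TTN, GGN, GGN and TTN, in which the tyrosine codon is replaced. The first motif occurred in 90 of 21581 protein-coding genes (0.417%), and only Penk, Pdyn and the keratin-associated genes Krtap19-2 and Krtap19-4 had 3 or more copies. The units below are shown because they encode the peptides that the enzymes described here release, taken from GENCODE M21 on mm10, minus strand, with the motif in capitals between the codon pairs before and the 3 codons after it.
Penk copy 1, chr4:4134328-4134354: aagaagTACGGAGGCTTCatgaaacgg
Penk copy 2, chr4:4134307-4134333: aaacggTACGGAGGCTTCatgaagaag
Penk copy 6, chr4:4133935-4133961: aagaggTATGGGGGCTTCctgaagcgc
Penk copy 7, chr4:4133842-4133868: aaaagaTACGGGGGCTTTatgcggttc
Pdyn copy 1, chr2:129688232-129688258: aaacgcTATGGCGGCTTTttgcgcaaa
Pdyn copy 2, chr2:129688124-129688150: aaacgcTATGGGGGCTTCctgcggcgc
Pdyn copy 3, chr2:129688067-129688093: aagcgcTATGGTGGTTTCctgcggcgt
Pnoc copy 1, chr14:65404872-65404898: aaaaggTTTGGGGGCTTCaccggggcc
A lysine or arginine codon pair preceded all 7 Penk copies and followed the fifth codon of 5. All 3 Pdyn copies had such a pair on both sides, and the Pnoc copy only before it. In Penk, 6 of the 7 copies continued with the methionine codon ATG, as in copies 1, 2 and 7, and copy 6 with the leucine codon CTG, the sequences of Met- and Leu-enkephalin.

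Penk was at 52.7 and 36.5 TPM, Pdyn at 16.3 and 12.9 TPM, and Pnoc at 6.42 and 6.37 TPM. Penk and Pdyn were thus both lower in replicate 2, and Penk exceeded Pdyn 3.01-fold within a library (log2 1.59 ± 0.14). Among the receptor genes, Oprl1, the nociceptin receptor gene, led with 26.0 and 31.0 TPM. Oprd1, the delta opioid receptor gene, had 6.05 and 5.87 TPM, Oprk1, the kappa receptor gene, 5.07 and 3.22 TPM, and Oprm1, the mu receptor gene, 3.70 and 3.85 TPM. Oprl1 stood 4.70-fold above Oprd1 (2.23 ± 0.21), while the order of Oprk1 and Oprm1 differed between the libraries. Penk exceeded Oprd1 7.26-fold (2.86 ± 0.35) and Oprm1 11.4-fold (3.50 ± 0.41), and Pdyn exceeded Oprk1 3.52-fold (1.82 ± 0.21). The nociceptin pair ran the other way, with Oprl1 4.39-fold above Pnoc (ligand over receptor -2.13 ± 0.18). Exons of Oprm1 overlap by 1.19% with those of Ipcef1 on the opposite strand, at 43.1 and 38.0 TPM, and those of Penk by 14.3% with the antisense gene A830012C17Rik, at 0.03 TPM in both libraries. Whether the counting used strand is not stated in the labels or headers, so these levels are uncertain to that extent.

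Neurotensin (Nts) was the lowest precursor, at 3.73 and 5.89 TPM. Its high-affinity receptor gene Ntsr1, known from a class of deep-layer corticothalamic neurons, was at 5.22 and 6.69 TPM, and Ntsr2, known from astrocytes, at 69.1 and 66.3 TPM. Ntsr2 was the highest of the 22 receptor genes, 11.3-fold above Ntsr1 (log2 3.50 ± 0.29) and 14.2-fold above Nts (ligand over receptor -3.82 ± 0.50). Nts lay close to Ntsr1, at -0.33 ± 0.21. Gastrin-releasing peptide (Grp) was at 19.9 and 19.2 TPM. Oxtr, the oxytocin receptor gene, was at 3.73 and 4.47 TPM, and Trhr, the receptor gene for thyrotropin-releasing hormone, at 1.78 and 3.84 TPM. Several partners of these genes are outside the 45 and were chosen for mention after their values were seen: the Grp receptor gene Grpr was at 1.10 and 1.16 TPM, Oxt at 0 and 0.70 TPM, Cckar at 0.02 and 0.09 TPM, Sstr5 at 0.08 and 0.07 TPM and Crhr2 at 1.17 and 1.62 TPM.

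Granins are acidic proteins that condense peptides in dense-core granules, and several are precursors themselves. Vgf, an activity-induced granin gene, was at 148 and 149.99 TPM, Chgb at 125 and 114 TPM, Chga at 94.8 and 96.7 TPM and Scg2 at 77.2 and 77.9 TPM. All 4 ranges were separate, and the order was the same in both quantifications. Of the 14 precursors, Cck and Sst were above all 4 granin genes, Npy lay between Chga and Scg2, and the others were below Scg2. In the second quantification Npy (174 and 156 TPM) lay above Chga (129 and 132 TPM).

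The levels of the processing enzymes lay far apart. Cpe, the carboxypeptidase that removes basic residues after cleavage, was at 1159 and 1099 TPM, rank 7 among the detected nuclear protein-coding genes, and held 82.6% ± 0.182 of the summed TPM of the 4 enzymes. Pcsk2, a convertase of late secretory granules, was at 128 and 110.0 TPM. Pam, the amidating enzyme, was at 99.4 and 109 TPM, and Pcsk1, the other granule convertase, at 14.99 and 15.4 TPM. Pcsk2 thus exceeded Pcsk1 7.76-fold (Pcsk1 over Pcsk2 -2.96 ± 0.18) and Pam exceeded it 6.79-fold, while Pcsk2 over Pam, at 0.19 ± 0.24, was smaller than its spread. Cpe stood 9.50-fold above Pcsk2 and 10.9-fold above Pam. Exons of Pcsk2 overlap by 3.29% with the antisense gene Pcsk2os1, at 1.36 and 1.41 TPM, and those of Pam by 1.58% with B230216N24Rik on the same strand, at 3.28 and 3.66 TPM.

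The promoters of several of these genes carry the cAMP response element, the site through which CREB-family factors act, well known from Sst itself. Promoter sequences, 250 bases before to 50 after the start, were matched in RefSeq (GRCm38.p6) for 36 of the 45 genes. Not matched were Oprk1, Sstr1, Pnoc, Vgf, Grp, Penk, Crh, Cpe and Trhr. The element TGACGTCA, which reads the same on both strands, was found in 5 of the 36 (13.9%), against 588 of all 32851 promoters of that length (1.79%), or 2.03% of all gene symbols. Windows of 30 bases around it are printed 5′ to 3′ along the gene's strand, with the element in capitals.
Sst, chr16:23890874-23890903, minus strand: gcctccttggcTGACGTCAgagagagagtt
Scg2, chr1:79440076-79440105, minus strand: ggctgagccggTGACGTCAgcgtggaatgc
Chgb, chr2:132781559-132781588, plus strand: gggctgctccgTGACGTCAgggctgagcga
Pcsk1, chr13:75089768-75089797, plus strand: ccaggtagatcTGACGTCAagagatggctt
Sstr2, chr11:113619258-113619287, plus strand: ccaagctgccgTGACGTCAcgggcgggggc
Chga, chr12:102554886-102554915, plus strand: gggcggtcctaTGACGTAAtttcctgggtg
The Chga window is shown with the variant TGACGTAA, found in 0.499% of all promoters, or 0.581% of all gene symbols. No other 8-letter variant was searched. In the first 5 genes the element ended 41 (Sst) to 71 (Pcsk1) bases before the RefSeq start, and the windows of Sst, Scg2 and Chgb lie in an annotated exon of the same gene in GENCODE M21. A further variant, TGCGTCA on either strand, was found in Cck, Cort and Tac1. It occurred in 2.12% of all promoters, or 2.42% of all gene symbols. None of the 3 letter strings contains another. The mean levels of the 5 genes with TGACGTCA, in the order printed, were 212, 77.6, 120, 15.2 and 17.0 TPM, so they included genes above and below the median of the 45. A match describes these letters only.

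Set pair by pair, the peptide gene was higher than the receptor gene in both libraries in 17 of 26 pairs, the receptor gene was higher in 8, and in 1 pair, Cort with Sstr3, the libraries did not give a common direction. How far apart the genes of a pair lie rests on dividing counts by length: without it 21 of the 26 ratios moved by more than the spread between replicates and 2 others reversed. The second quantification gave the same split of 17, 8 and 1 pairs. The 8 pairs with the higher receptor gene were Cort with Sstr1, Sstr2 and Sstr4, Adcyap1 with Adcyap1r1, Crh with Crhr1, Pnoc with Oprl1, and Nts with both its receptors. Pair ratios were taken as log2 of (TPM + 0.1) within each library, and no test was made, since the smallest exact p with 2 libraries is 0.5.

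**Figure D2:**
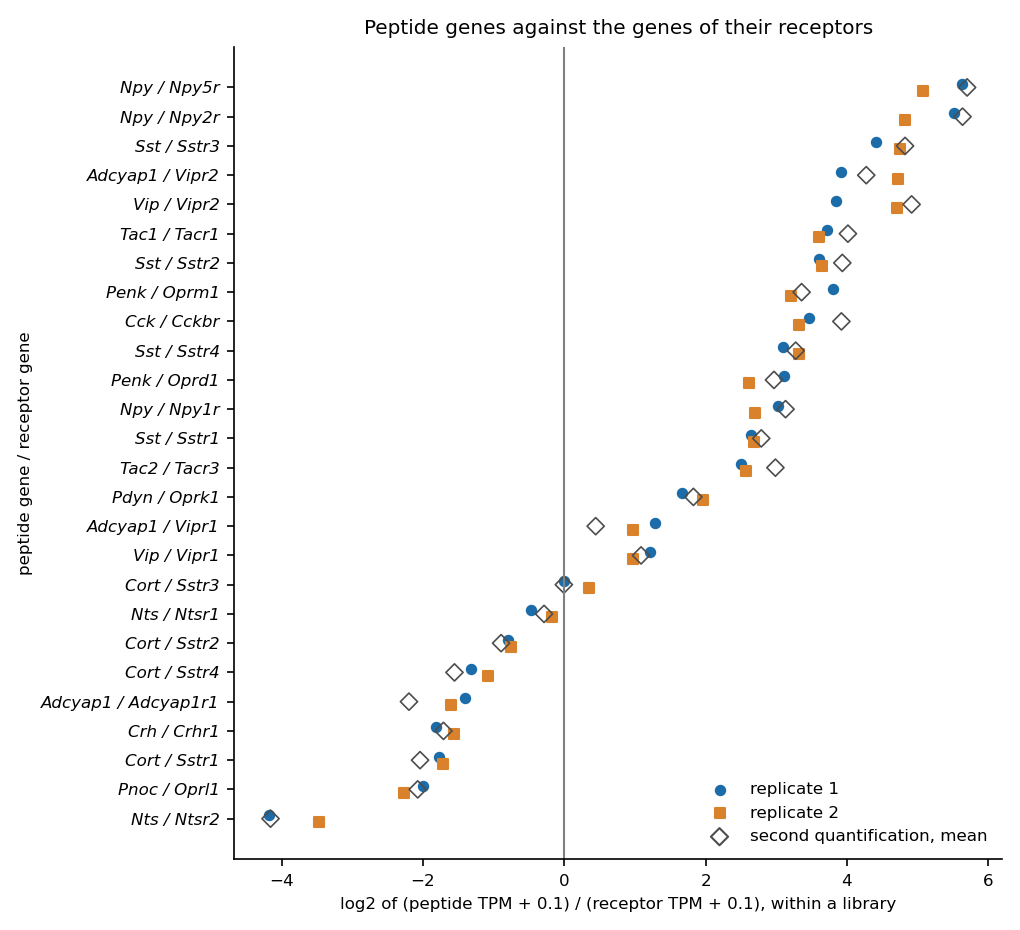
Log2 ratio of peptide to receptor gene within each library for 26 pairs, replicate 1 as circles, replicate 2 as squares and the mean of the second quantification as diamonds; the vertical line marks equal TPM. Npy over Npy5r is highest at 5.35 ± 0.39 and Nts over Ntsr2 lowest at -3.82 ± 0.50 (SD, n = 2), with 17 pairs right of the line in both libraries.

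Against the enzymes the order was nearly fixed. Cpe exceeded each of the 14 precursors in both libraries, from 3.69-fold over Cck (precursor over Cpe -1.88 ± 0.02) to 236-fold over Nts (-7.88 ± 0.51). Only Cck and Sst were above Pcsk2, by 2.58-fold (1.36 ± 0.08) and 1.78-fold (0.83 ± 0.19), and the same genes were above Pam, by 2.94-fold (1.56 ± 0.16) and 2.04-fold (1.03 ± 0.06). In the second quantification Cck was 3.96-fold above Pcsk2, 4.85-fold above Pam and 30.6-fold above Pcsk1. Npy was below Pam in the gene table (-0.24 ± 0.17) but above it in the second quantification. Pcsk1 divided the precursors. In both libraries 8 of the 14 were above it, from Cck at 19.98-fold (4.32 ± 0.10) down to Tac1 at 1.04-fold (0.06 ± 0.05), 5 were below it (Cort, Tac2, Pnoc, Crh and Nts), and Pdyn was above in replicate 1 and below in replicate 2. In the second quantification Adcyap1 moved below Pcsk1, which left 7 above and 6 below.

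**Figure D3:**
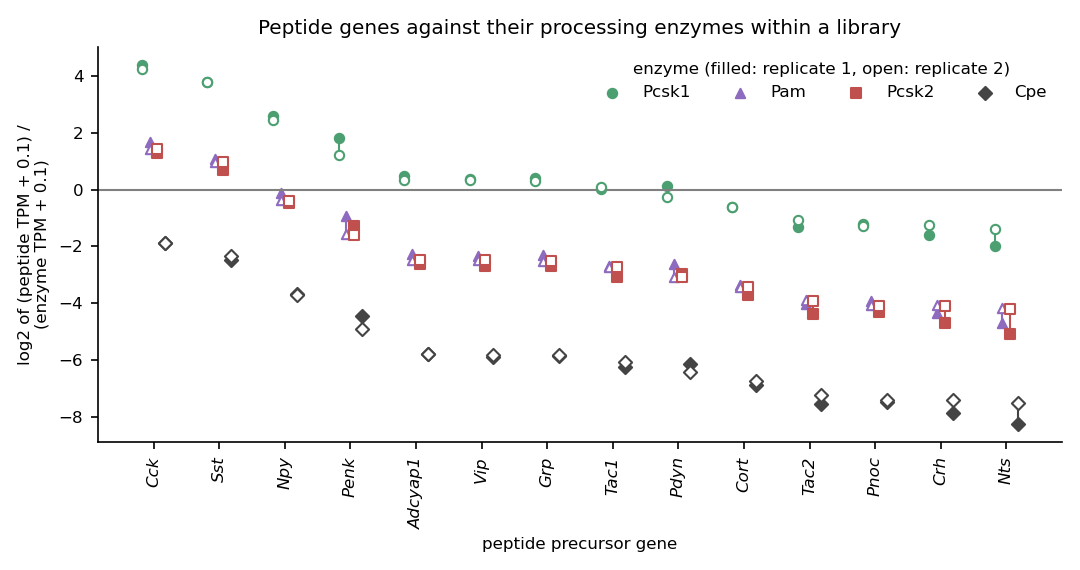
Log2 ratio of each precursor gene to each of the 4 processing enzyme genes, filled symbols for replicate 1 and open symbols for replicate 2, precursors ordered by mean level; the horizontal line marks equal TPM. All points for Cpe lie below the line, while Pcsk1 is crossed between Grp and Cort.

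The libraries were compared with each other by gene. Counts went into an exact binomial test, two-sided, scaled by edgeR's TMM library sizes and adjusted by Benjamini-Hochberg over all 18887 genes with 10 counts or more in a library. Such a test compares these 2 libraries under counting error alone, and the spread it measures may be technical. Of the 45 genes, all of them tested, 15 passed an adjusted p of 0.05, beside 20.3% of all genes tested and 26.5% of genes with 100 counts or more, where 41 of the 45 lie. No property of the list is read from that count. Those higher in replicate 2 numbered 5, beside 8.88% of all genes, and those lower 10, beside 11.4%. With library sizes from total gene counts or from spike-ins the split of the 45 was 7 higher and 7 lower in each case, and that of all genes went from 1678 higher and 2152 lower to 2733 and 1145 with total counts and 2570 and 1229 with spike-ins.

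Of the 7 opioid precursor and receptor genes, 3 were lower in replicate 2, beside 11.4% of all genes tested. With 7 genes nothing about the group is read from that count. Penk had 1426 counts in replicate 1 and 926 in replicate 2 (log2 -0.61 ± 0.06, counting SE, adjusted p = 4.28e-23, exact binomial test), Oprk1 377 and 250 (-0.56 ± 0.12, adjusted p = 7.75e-06) and Pdyn 772 and 593 (-0.37 ± 0.08, adjusted p = 2.23e-05). Penk and Pdyn are also known for high expression in striatal projection neurons, and the markers of these cells moved with them: all 8 were lower in replicate 2, with a median log2 of -0.69 and the summed levels given above. All 8 oligodendrocyte markers were lower too, with a median log2 of -0.90. The part of either list in the opioid differences was not tested. Pnoc (-0.02 ± 0.14), Oprd1 (-0.10 ± 0.09), Oprm1 (-0.01 ± 0.16), Oprl1 (0.03 ± 0.06) and Tac1 (0.06 ± 0.12), a further striatal precursor gene, did not pass. Smaller differences in the same direction passed for Pcsk2 (-0.28 ± 0.02, adjusted p = 1.14e-47), Chgb (-0.19 ± 0.03), Cck (-0.16 ± 0.03) and Cpe (-0.14 ± 0.01). Excitatory neuron markers were lower in 6 of 8 as well and higher in 1, with a median log2 of -0.15, and their part in these 4 differences was not tested. Sstr4 (-0.24 ± 0.08, adjusted p = 0.0186), Npy (-0.18 ± 0.07, adjusted p = 0.0469) and Ntsr2 (-0.12 ± 0.04, adjusted p = 0.0256) also passed, but none of the 3 did with library sizes from total counts, where the adjusted p-values were 0.0975, 0.219 and 0.307. Astrocyte markers, listed beside Ntsr2, were lower in 4 of 7 and higher in 2, with a median log2 of -0.13. Their summed level was 1591 and 1473 TPM, of which Slc1a2 alone held 1126 and 1005 TPM. The median level of the 7 was 58.9 and 66.9 TPM. The part of these markers was not tested. With an assumed dispersion of 0.01 in edgeR's exact test, none of the 10 lower genes passed, Penk with an adjusted p of 0.219.

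Higher in replicate 2 were 4 receptor genes and Nts. Trhr had 117 and 273 counts (log2 1.12 ± 0.16, adjusted p = 5.53e-14, exact binomial test). It was the only gene of the 45 both called and different by 2-fold or more, beside 0.657% of all genes tested, and the only one called with edgeR's exact test at an assumed dispersion of 0.01 (adjusted p = 0.000728). Npy2r had 116 and 193 counts (0.66 ± 0.17, adjusted p = 0.000144), Nts 92 and 139 (0.52 ± 0.19, adjusted p = 0.0132), Ntsr1 428 and 525 (0.29 ± 0.09, adjusted p = 0.0115) and Oxtr 338 and 418 (0.29 ± 0.11, adjusted p = 0.0219). Nts did not pass on the counts of the second quantification (adjusted p = 0.141). Beside these, the precursor genes Trh and Avp had 30 and 152 and 1 and 101 counts. Choroid plexus markers were higher in 6 of 7, with a summed level of 12.4 and 138 TPM. Ttr alone held 9.86 and 131 TPM of that sum, and only 2 of the 7 reached 1 TPM in both libraries. Interneuron markers were higher in 4 of 12 and lower in 2, with a median log2 of 0.03 and a summed level of 419 and 424 TPM. Of 5 meningeal fibroblast markers 3 were higher and 0 lower, with a median log2 of 0.41 and a summed level of 108 and 137 TPM. The part of these markers in the differences was not tested. Among the interneuron peptides, Sst (-0.01 ± 0.04), Vip (-0.06 ± 0.08), Cort (0.00 ± 0.19) and Crh (0.31 ± 0.17) were not called. Npy (-0.18 ± 0.07) and Cck (-0.16 ± 0.03), also made by interneurons, were called lower in replicate 2, as given above.

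**Figure D4:**
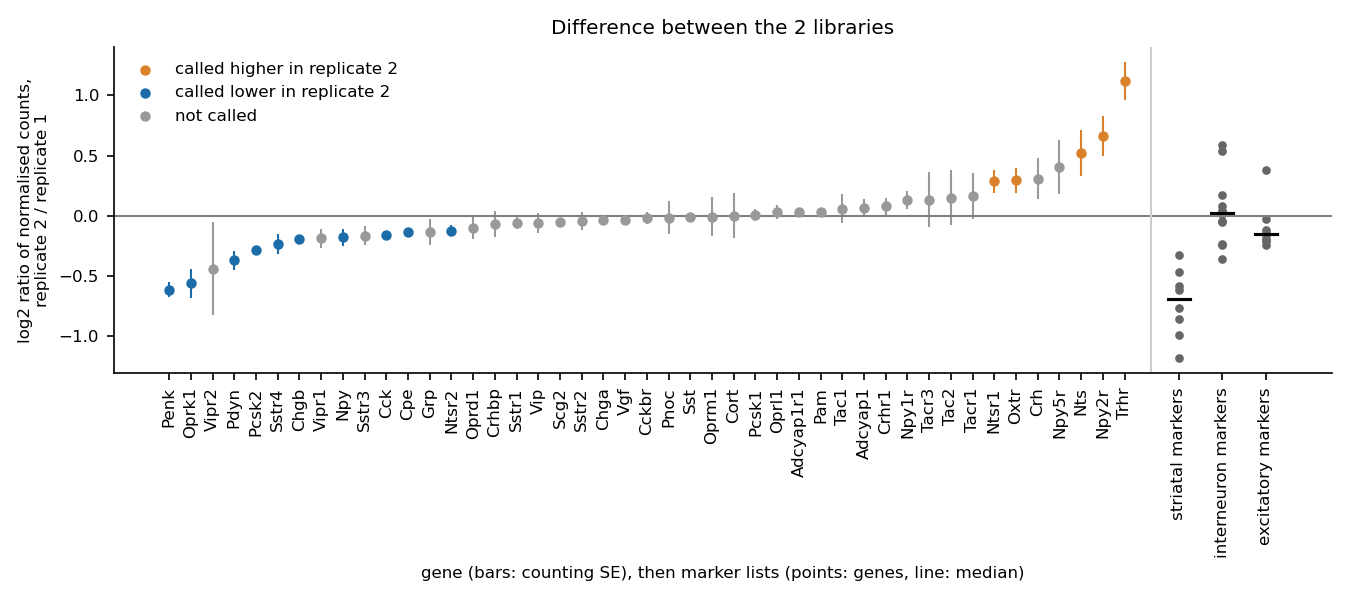
Log2 ratio of normalised counts, replicate 2 over replicate 1, for the 45 genes in order of the ratio, with counting SE as bars and calls in colour, followed by the genes of 3 marker lists as points with the median as a line. Penk is at the low end (-0.61), Trhr at the high end (1.12), and the striatal markers lie below 0 throughout.

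TPM divides counts by the length of the transcripts estimated to be present, so both need not move alike between libraries. Vipr1 had fewer counts in replicate 2 (699 and 611) but a higher TPM (8.44 and 9.97), while the share of its leading transcript Vipr1-201 was 78.1% and 59.7%. In the second quantification that share was 70.1% and 69.8%, and Vipr1 was at 13.9 and 12.9 TPM, lower in replicate 2 as its counts were. Adcyap1 had the opposite pattern, with more counts (700 and 733) and a lower TPM (20.7 and 19.6) in replicate 2. In the second quantification its TPM was higher in replicate 2, as its counts were (17.4 and 19.1 TPM). Of the 45 genes, 10 have 1 annotated transcript and 35 have several, 177 transcripts in all, up to 31 for Oprm1. The leading transcript held 80% or more of the gene's TPM in 17 of the 35 on average. Taken from the mean share of the 2 libraries, it was the same in both quantifications in 28 of the 35. In 7 it differed: Cck, Tac1, Tac2, Pnoc, Vgf, Tacr1 and Trhr. The mean can hide a difference between libraries. Npy2r is among the 28, but in both quantifications Npy2r-202 led in replicate 1 and Npy2r-201 in replicate 2. Tac2-201 and Tacr1-202 led in replicate 1 in both quantifications.

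Cck-201 held 93.4% and 91.9% of Cck in the first quantification but 29.4% and 35.2% in the second, where Cck-203 led with 38.2% and 39.5%. Vgf-201 held 77.2% and 76.8% in the first, and Vgf-204 64.0% and 69.8% in the second. For these genes the quantifications differed far more than the libraries. Tac2-201 went from 100% and 95.2% to 41.4% and 25.0%, and Tacr1-202 from 97.2% and 97.6% to 58.5% and 27.0%. Pnoc-202 held 59.0% and 51.0% in the first, against 25.8% and 20.9% in the second. For Tac1, Tac1-203 (44.2% and 43.5%) and Tac1-205 (40.1% and 40.9%) were nearly level in the first, and Tac1-205 led with 55.4% and 52.8% in the second.

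At least 2 transcripts held 15% or more in both libraries in 9 genes: Adcyap1, Tac1, Pnoc, Vgf, Scg2, Npy1r, Npy2r, Npy5r and Trhr. Scg2 was similar in both quantifications, with Scg2-201 at 63.3% and 58.7% in the first and 68.4% and 67.0% in the second. Npy1r-201 held 74.9% and 68.3%, then 61.2% and 52.5%. Npy2r and Npy5r, the latter with 71 and 99 counts, gave unlike shares in the libraries: Npy2r-201 held 23.4% in replicate 1 and 68.2% in replicate 2, and Npy5r-201 42.3% and 63.8%. Transcripts not annotated as protein-coding held over 20% in both libraries in 4 genes, Adcyap1, Vipr1, Oprl1 and Trhr. In Adcyap1 this was the retained-intron transcript Adcyap1-203, at 27.7% and 29.7% in the first quantification and 43.1% and 43.8% in the second. In Trhr it was Trhr-203, annotated for nonsense-mediated decay, at 43.3% and 47.0% in the first quantification. In the second, Trhr-201 led with 55.3% on average, and transcripts not annotated as protein-coding held 42.4%.

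**Figure D5:**
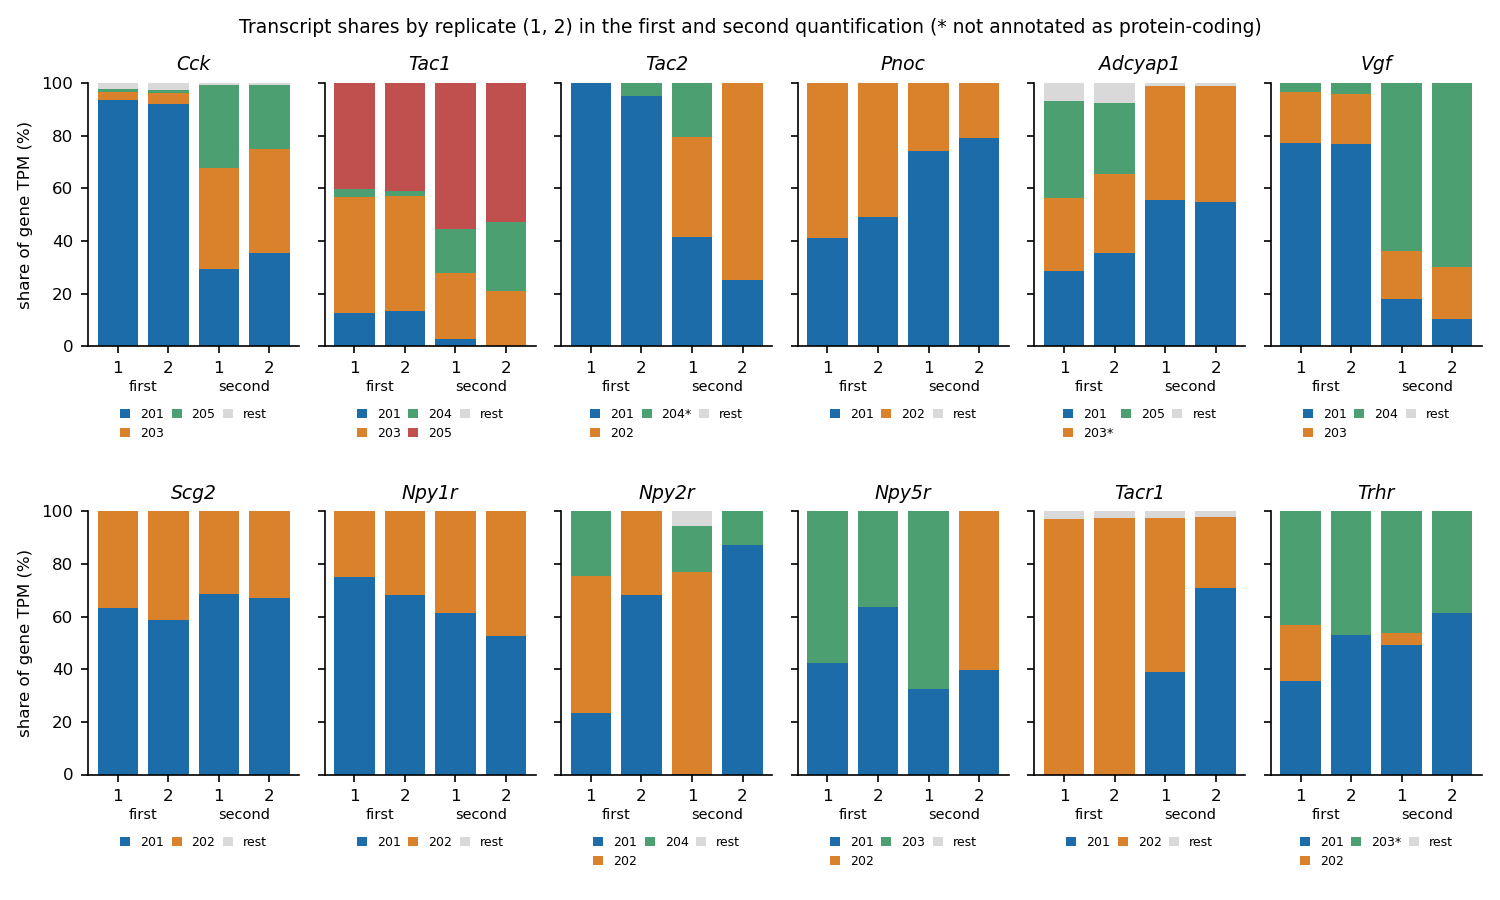
Share of the gene's TPM per annotated transcript for 12 genes, each with replicate 1 and 2 in the first and then in the second quantification; colours mark transcripts of 10% or more in any column, grey the rest, and an asterisk those not annotated as protein-coding. Cck and Vgf differ more between quantifications than between libraries, while Npy2r and Npy5r differ between the libraries too.

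Of 38 genes listed as other peptide precursors, 14 reached 1 TPM in both libraries. Of the 20 tested between the libraries, 5 were higher in replicate 2 and 0 lower, beside 8.88% of all genes tested higher and 11.4% lower. The highest were Nxph1, an interneuron-secreted neurexin ligand gene, at 24.2 and 25.6 TPM, Cartpt at 15.2 and 20.8 TPM and Cbln2 at 16.6 and 15.4 TPM, below the 4 leading precursors of the 14. Nxph1 and Cbln2 encode secreted synaptic proteins and not neuropeptides, so of these only Cartpt is a peptide precursor gene. The other cerebellin genes of this list are no neuropeptide genes either, and they also reached 1 TPM in both libraries. Other processing and granule genes were widely expressed, 33 of the 35 with a row in the tables reaching 1 TPM in both libraries, and Scg5, the chaperone of Pcsk2, led with 231 and 215 TPM. Ptprn2 and Ptprn, transmembrane proteins of dense-core granules, followed at 183 and 182 TPM and at 175 and 178 TPM. Of these 35 genes, 10 were lower and 3 higher in replicate 2, beside 20.3% of all genes called in either direction and 26.5% of those with 100 counts or more. Baiap3 was higher most of all (260 and 640 counts, log2 1.25 ± 0.11, adjusted p = 1.09e-35, exact binomial test). Of 51 genes listed as other peptide receptors, which include genes of accessory proteins and sorting receptors, 27 reached 1 TPM in both libraries. Among the 37 tested, 6 were higher and 6 lower in replicate 2. Nothing about these lists is read from their counts. Their highest levels belonged to Sort1, which encodes the sorting receptor that also binds neurotensin, at 124 and 116 TPM, Gpr37l1 at 83.4 and 77.2 TPM and the endothelin receptor gene Ednrb at 28.7 and 31.7 TPM.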

How the data were processed

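Ribosomal-RNA-depleted total RNA of 2 left cerebral cortex libraries was analysed. Per the file headers, the authors deposited expected counts (estimated reads per gene or transcript, not normalised) and TPM, scaled to a fixed total that includes the spike-in rows. A gene table and a transcript table were made from alignments to the transcriptome. The second quantification, summed here per gene, was made from the reads. Both used mm10 with GENCODE M21, per the text deposited with the samples. Neither tools nor strand settings are given in the sources used here, nor how reads of the CAST/EiJ allele fared against the reference. Spike-in rows (0.359% and 0.361% of counts) and numbered rows that name no gene (5 and 4.84 counts) were left out of totals and tests.

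Detection means 1 TPM or more in both libraries, and ratios between genes are log2 of (TPM + 0.1). The libraries were compared on counts rounded to whole numbers, with edgeR 4.0.16 (R 4.3.3) library sizes, for genes reaching 10 counts in 1 library or both. Ratios are log2 of (CPM + 0.5), replicate 2 over replicate 1, which understates the change of low genes. CPM stands for counts per 1e+06 of the TMM library size. No replicate check of that difference is possible, and errors cover counting only. On simulated data drawn for these 18887 genes, 62%, 68%, 92% and 100% of genes changed 1.5-, 2-, 4- and 8-fold were called, and 10 of 18687 unchanged ones. The simulated counts were drawn with counting error alone, which the test assumes. They therefore do not show how often unchanged genes are called between real libraries. Alternatives were the second quantification, other thresholds, pseudocounts, library sizes (DESeq2 1.42.0 factors among them) and filters, and edgeR's exact test. Motifs and sequences were searched with Python 3.11.15.

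The 45 genes, the gene pairs and the other lists were chosen with earlier results of these data known. All 45 genes are accounted for. From other lists at most the 3 with the highest mean TPM and the 3 called genes with the largest ratio were to be named, and transcripts of genes with several transcripts of 15% or more or with unlike leading transcripts.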

Additional observations from a re-analysis of the deposited data

How the results depend on the processing

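Detection of the 45 genes ranged from 39 to 45 over the second quantification and thresholds of 0.5 and 2 TPM, and was 44 without either replicate. The median level was 22.4 TPM in the second quantification and 33.7 TPM after rescaling over nuclear protein-coding genes, against 16.4 TPM, by construction of the scale in the latter case. The peptide gene was higher in 17 to 18 pairs without replicate 1 or 2, in 15 of 26 on expected counts with no division by length and in 14 of the 23 pairs with both genes at 1 TPM or more. On counts not divided by length, Vip over Vipr1 reversed to -0.13 and Tac2 over Tacr3 to -0.027, since these receptors have the longer transcripts. A further 21 of the 26 ratios moved by more than the spread between replicates, among them Npy over Npy1r from 2.86 to 0.27 and Sst over Sstr1 from 2.66 to 1.06. Cort over Sstr3, with no common direction before, became -2.57. With a pseudocount of 1, 8 of the 26 ratios moved, and with 0.01, 2. With edgeR's exact test at an assumed dispersion of 0.01, 1 gene of the 45 was higher and 0 lower in replicate 2, beside 182 of all genes, and Penk had an adjusted p of 0.219. Calls lost or gained in other settings were few. Npy lost its call with total counts, spike-in totals and no count filter, Sstr4 and Ntsr2 with total counts and spike-in totals, and Nts in the second quantification. Pam and Adcyap1r1 became higher with total counts and spike-in totals, and Sstr3 and Vipr1 lower in the second quantification. The leading transcript held 80% or more in 17 to 18 genes without replicate 1 or 2. No paired analysis was possible because there is 1 group, and leaving out a replicate leaves no difference between libraries to compute. Low counts limit Vipr2, Npy5r, Tac2, Tacr3 and Nts most.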

Other observations

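Peptidases that can cleave neuropeptides were also measured, from a list of 15 genes of which 14 reached 1 TPM in both libraries. The cytosolic puromycin-sensitive aminopeptidase gene Npepps was highest, at 62.0 and 63.2 TPM in replicate 1 and 2, then the endothelin-converting enzyme gene Ece1 at 43.2 and 39.9 TPM and Lnpep, whose product is also called oxytocinase, at 36.8 and 33.9 TPM. Between the libraries 2 were higher and 2 lower in replicate 2 by the exact binomial test, beside 8.88% and 11.4% of all genes tested. Ide, which encodes the insulin-degrading enzyme, had 1935 and 3167 counts (log2 0.71 ± 0.04, counting SE, adjusted p = 5.80e-65). Mme, which encodes neprilysin, the main enkephalin-degrading enzyme at the cell surface, had 537 and 349 counts (-0.60 ± 0.10, adjusted p = 7.99e-09), and Ece2 had 390 and 532 (0.43 ± 0.10, adjusted p = 4.22e-05). Ide and Mme, chosen by their ratios among the 15, lay as far from 0 as most neuropeptide genes called between these libraries. The median log2 of the 15 was -0.03, and nothing about peptidases is read from these ratios.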
